A study of Homo sapiens with 6 samples.

Results

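The genes described here are those of the machinery that shortens, decaps and degrades mRNA, including the factors of nonsense-mediated decay. They were chosen by name, as the probes whose single gene symbol in the platform annotation belongs to the UPF, SMG, EXOSC, CNOT, DCP, EDC, XRN, PABPC, PABPN, PAN, PARN, ZFP36, PUM, ELAVL, BTG, TOB, AGO, KHSRP and STAU series. This gave 58 probes of 53 genes, among 8987 genes with a single-symbol probe. All 53 were measured on all 5 harvest arrays, as were 8748 genes in all. The annotation name DCPH1 also matched, through its first letters. The gene table gives ARMT1 as another name of this gene, which encodes a phosphatase with no known part in mRNA decay, so it is given apart from the roles below.

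Human GM00156 cells, a line of the Coriell repository, received emetine dihydrochloride hydrate at 100 µg/ml or no emetine for 10 h. Emetine stops ribosomes on the mRNA. Actinomycin D, which blocks transcription, was then added to both cultures at 5 µg/ml, and cells were taken 0, 10 and 30 min, 1 h and 8 h later. On 5 two-colour arrays, 1 per harvest, mRNA of emetine-treated cells was set against mRNA of untreated cells of the same harvest. A further array carried mRNA of emetine-treated cells of 0 min in both colours (self-self), and its label mentions no actinomycin D. The labels do not state the cell type of the line, and ratios give no levels by which to check it against markers.

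Most mRNAs of human cells are degraded after their poly(A) tail has been removed. The PAN2-PAN3 and CCR4-NOT complexes and PARN shorten the tail, the cap is then taken off by DCP2 with its partners, and XRN1 degrades the body 5' to 3', while the RNA exosome works 3' to 5'. Proteins such as ZFP36, the Pumilio proteins and the BTG/TOB family bring deadenylases to chosen mRNAs, and poly(A)-binding and ELAV proteins sit on the mRNA. Nonsense-mediated decay, built around UPF1 and its kinase SMG1, removes mRNAs on which a ribosome stops early, so it needs translation. Several of its factors are encoded by mRNAs that are themselves targets of the pathway.

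Each value is a log2 ratio of the 2 channels, and the labels do not settle which channel is the numerator. Sides are therefore called positive and negative. If untreated cells were the denominator, which the labels do not say, a positive value would mean more RNA in emetine-treated cells. The labels of the 0 min array conflict, since the channels are named as treated and untreated but the description speaks of treated RNA in both, and counts are therefore also given without it. The highest value on the 1 h array was 2.99, against 5.94 to 7.14 on the other harvest arrays. The robust SD of an array was 0.44, 0.91, 0.78, 0.53 and 0.87 at 0, 10 and 30 min, 1 h and 8 h, and 0.12 on the self-self array. Equal masses of mRNA of whole cultures were labelled, so a ratio compares shares of the mRNA pool. It shows neither the number of cells nor the amount of RNA per cell. Nothing says that the harvests came from separate cultures, so p-values measure only the spread between these arrays, which may be technical.

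The first comparison asks which decay genes lay away from 0 when the 5 harvests were averaged. The largest positive ratios belonged to CNOT4, a ubiquitin ligase that associates with CCR4-NOT, SMG8, a regulator of the SMG1 kinase, CNOT6L, a catalytic deadenylase, and BTG1, a deadenylase adaptor, with means of 2.45, 1.94, 1.61 and 1.32. The largest negative ratio was that of EXOSC3, an RNA-binding cap subunit of the exosome, with a mean of -0.997. At a limma adjusted p of 0.05 over all genes, 20 of the 53 genes (37.7%) were called positive and 4 (7.55%) negative, and 29 were not called. Among all 8748 genes, 37% were called positive and 25.3% negative. The positive share of the decay genes was thus near that of all genes, and the negative share was below it. Their median was 0.18, against 0.14 for all genes, and with each array centred on its own median these were 0.08 and 0.04. With the 0 min array left out the calls were 21 positive and 3 negative, against 36.6% and 25.1% of all genes. With centred arrays they were 18 positive and 7 negative, against 30.2% and 29.9% of all genes. When the self-self array was entered as the level to compare with, limma called 0 decay genes on either side (lowest adjusted p = 0.157, 13 at an unadjusted p of 0.05) and 1 of 8725 genes. Called with a mean of 1 or more in size were 6 decay genes, all positive (11.3%), and 14.3% of all genes, on either side.

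**Figure D1:**
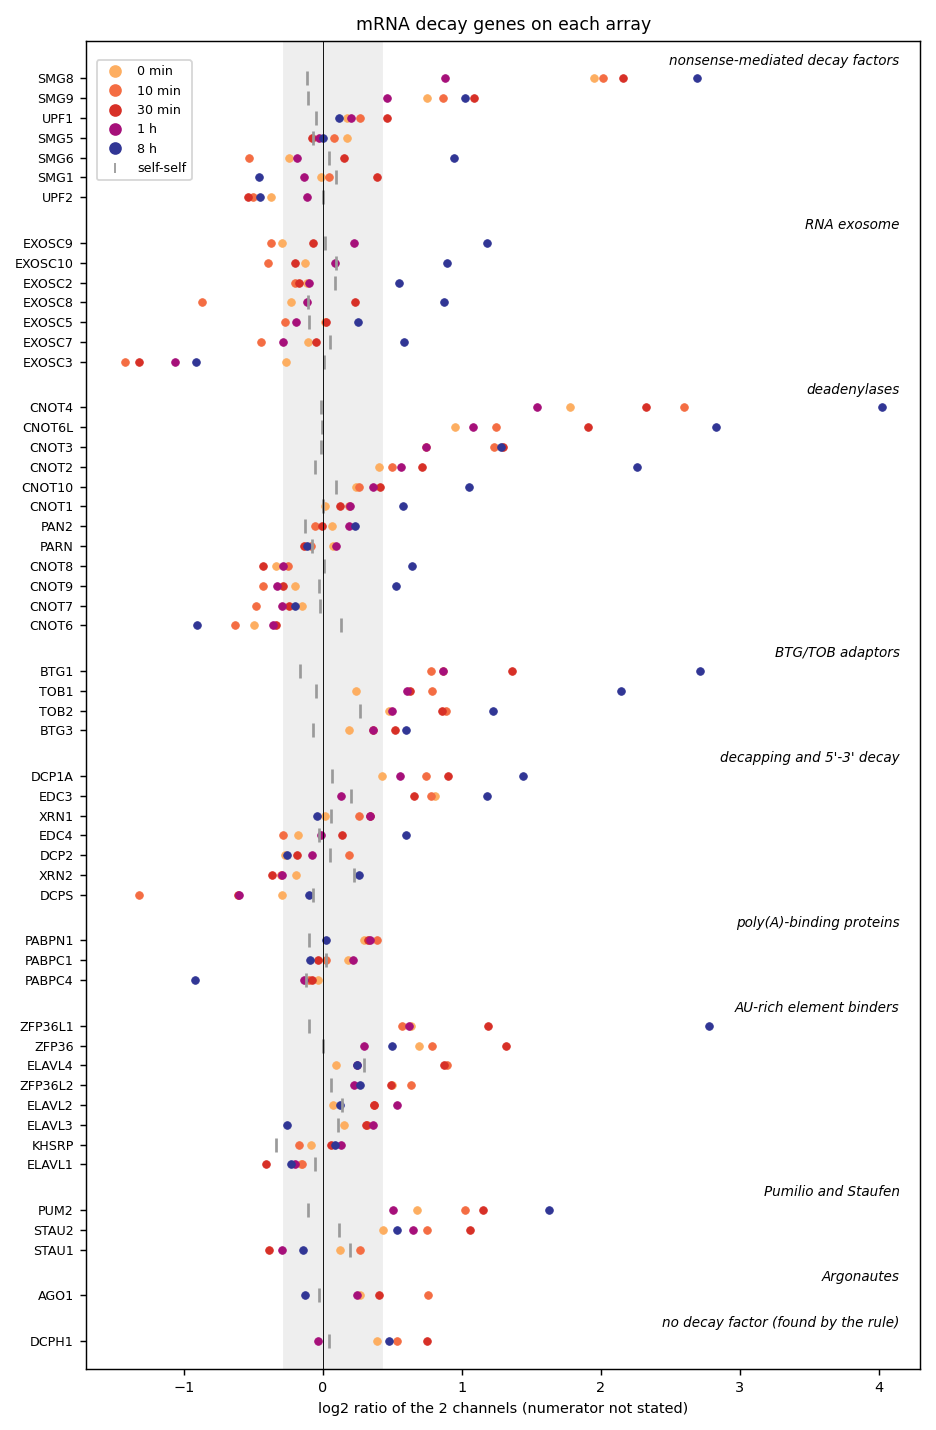
Log2 ratio (horizontal axis) of each of the 53 genes, by role, on the 5 harvest arrays (dots) and the self-self array (grey tick). The grey band is the central 99% of all genes on the self-self array, -0.28 to 0.43, and CNOT4, SMG8 and CNOT6L have every harvest to its right, CNOT6 every harvest to its left.

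**Figure D2:**
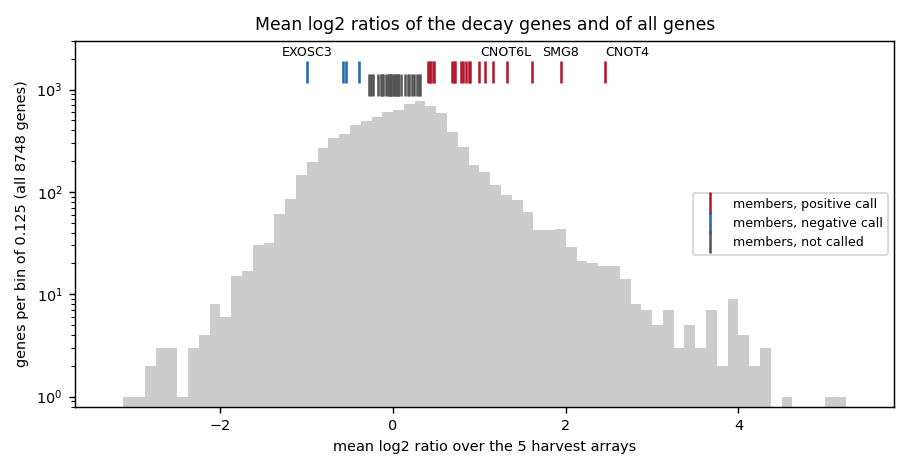
Mean log2 ratio over the 5 harvests of all 8748 genes (grey histogram, log axis of genes per bin) and of the 53 decay genes (ticks above it, coloured by call). The decay genes run between -0.997 and 2.45, inside the range of all genes, which is -3.09 to 5.22.

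The promoters of 4 genes are printed, those of the genes with the largest positive and the largest negative mean (CNOT4 and EXOSC3) and of a pair of paralogous deadenylases that lay on opposite sides (CNOT6L and CNOT6). Each run is the 250 bases before the transcription start, 5' to 3' in the direction of transcription, from RefSeq on GRCh38.p14. CNOT4 lies at chr7:135510103-135510352 on the minus strand, and EXOSC3, by the first of 2 listed starts, at chr9:37785093-37785342 on the minus strand. CNOT6L, by the first of 3 listed starts, lies at chr4:77820270-77820519 on the minus strand, and CNOT6 at chr5:180494129-180494378 on the plus strand.
CNOT4 promoter: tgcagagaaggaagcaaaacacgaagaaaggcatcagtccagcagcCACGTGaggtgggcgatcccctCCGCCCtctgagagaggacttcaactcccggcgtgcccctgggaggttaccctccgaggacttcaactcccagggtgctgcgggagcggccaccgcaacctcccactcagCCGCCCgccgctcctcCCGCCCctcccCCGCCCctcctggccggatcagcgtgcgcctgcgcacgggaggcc
EXOSC3 promoter: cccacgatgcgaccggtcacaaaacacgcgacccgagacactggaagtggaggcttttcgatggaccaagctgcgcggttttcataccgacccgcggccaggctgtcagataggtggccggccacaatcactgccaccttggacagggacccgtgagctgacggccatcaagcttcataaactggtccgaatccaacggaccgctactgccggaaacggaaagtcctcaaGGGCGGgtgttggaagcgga
CNOT6L promoter: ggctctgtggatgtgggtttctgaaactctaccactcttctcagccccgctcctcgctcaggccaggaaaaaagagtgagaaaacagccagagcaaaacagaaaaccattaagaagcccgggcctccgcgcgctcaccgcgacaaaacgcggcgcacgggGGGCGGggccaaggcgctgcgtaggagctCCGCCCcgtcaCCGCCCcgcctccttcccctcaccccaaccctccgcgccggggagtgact
CNOT6 promoter: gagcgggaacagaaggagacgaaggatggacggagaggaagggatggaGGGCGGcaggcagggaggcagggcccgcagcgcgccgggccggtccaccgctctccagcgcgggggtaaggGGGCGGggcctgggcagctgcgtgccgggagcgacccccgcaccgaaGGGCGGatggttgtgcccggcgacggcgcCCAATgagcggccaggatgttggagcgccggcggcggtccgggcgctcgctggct
Capitals mark matches on either strand. The letters searched were CCAAT for the CCAAT box, GGGCGG for the GC box and TATAAA. The E-box was searched as CACGTG, and the cAMP response element as TGACGTCA. None of these 5 motifs contains another. CNOT4 has 4 GC boxes and 1 E-box, EXOSC3 has 1 GC box, CNOT6L has 3 GC boxes, and CNOT6 has 3 GC boxes and 1 CCAAT box. RefSeq promoters were listed for 44 of the 53 genes, and none was for CNOT1, CNOT7, ELAVL1, ELAVL3, PABPC1, PABPC4, SMG8, STAU2 and ZFP36L2. Counting all starts of a gene, 79.5% of the 44 genes hold a GC box, 52.3% a CCAAT box, 15.9% an E-box, 6.82% TATAAA and 4.55% a cAMP response element. Of all 27305 genes listed, 46.2% hold a GC box, 37.0% a CCAAT box, 7.73% an E-box, 13.0% TATAAA and 2.03% a cAMP response element. The 27305 genes are all those with a listed promoter, not only those measured on the arrays. A gene with more listed starts also has more chances of a match, so the 2 sets of shares are not like for like. A match describes letters and not a bound site, and the harvests after 0 min were made with transcription blocked in both cultures.

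Among the nonsense-mediated decay factors, SMG8 and SMG9 were positive and UPF2 negative, and UPF1, SMG1, SMG5 and SMG6 were not called. The calls of this and every further role stand beside 37% positive and 25.3% negative among all genes. SMG8 and SMG9 bind the SMG1 kinase together. Over the harvests in time order (0, 10 and 30 min, 1 h and 8 h), SMG8 was at 1.95, 2.02, 2.16, 0.88 and 2.69, and it was at -0.12 on the self-self array. SMG9 was at 0.75, 0.87, 1.09, 0.47 and 1.03, with -0.10 on the self-self array. Both lay above the self-self range on every harvest, and SMG8 was lowest on the 1 h array. Their means were 1.94 (SE 0.22, limma adjusted p = 0.000479) and 0.84 (SE 0.13, limma adjusted p = 0.00106). Among all genes, SMG8 was at percentile 94.7 or above on every harvest.

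UPF1, the helicase at the centre of the pathway, was at 0.17, 0.27, 0.46, 0.20 and 0.12, positive throughout and past the self-self limit at 30 min only. Its mean was 0.24 (SE 0.11, limma adjusted p = 0.0836). SMG1, the kinase of UPF1, was at -0.01, 0.04, 0.39, -0.14 and -0.46, on both sides of 0. SMG5, an adaptor that recognises phosphorylated UPF1, stayed between -0.08 and 0.18 on every harvest. SMG6, the endonuclease of the pathway, was at -0.24, -0.53, 0.15, -0.19 and 0.94, and stood out at 8 h. Of the 7 factors listed as having mRNAs that are known targets of nonsense-mediated decay, 5 were on the array, UPF1, UPF2, SMG1, SMG5 and SMG6. None of these 5 was called positive, against 37% of all genes, and 1 was called negative, against 25.3%. That 1 is UPF2, whose side depends on the probe, as given below. So few genes cannot show a difference from these shares. Their median was 0.03, against 0.14 for all genes.

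UPF2, which bridges UPF1 and the exon junction complex, had 2 probes that disagreed. Probe 6093 was at -0.37, -0.50, -0.54, -0.12 and -0.45, negative on every harvest, and its mean of -0.40 (SE 0.12, limma adjusted p = 0.0178) is the negative call given for the gene. Probe 6939 was at 0.88, 1.15, 0.90, 0.70 and 0.67, positive on every harvest, and its 0 min value is the value repeated at 367 probes of that array, which was treated as not measured. The gene therefore rests on probe 6093 alone. With the 0 min array left out both probes enter and their mean is 0.23 (limma adjusted p = 0.113), so UPF2 has no settled side. On the self-self array the probes were at 0.00 and 0.03.

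The CCR4-NOT and other deadenylase genes held the widest spread of any role, with means between -0.55 and 2.45. Of 12 genes, 5 were called positive (CNOT2, CNOT3, CNOT4, CNOT6L and CNOT10), 1 negative (CNOT6) and 6 not called, and their median was 0.15. The positive share of 41.7% was near the 37% of all genes. CNOT4 was at 1.78, 2.60, 2.33, 1.54 and 4.02, with -0.01 on the self-self array. It was the highest decay gene at 10 and 30 min, 1 h and 8 h. Its mean was 2.45 (SE 0.23, limma adjusted p = 0.000462), which is a linear ratio of 5.48 between the channels. CNOT3, which with CNOT2 forms the NOT module of the complex, was at 0.75, 1.23, 1.30, 0.75 and 1.29. CNOT2 was at 0.40, 0.50, 0.71, 0.57 and 2.26. CNOT3 had nearly the same value at 10 min, 30 min and 8 h, while CNOT2 was far higher at 8 h than before. Their means were 1.06 (SE 0.13, limma adjusted p = 0.000543) and 0.89 (SE 0.14, limma adjusted p = 0.00135). Without the 8 h array the mean of CNOT2 was 0.55 (limma adjusted p = 0.0117) and CNOT10, a subunit that binds CNOT1, lost its call (limma adjusted p = 0.0669, against 0.00693 on all 5).

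CNOT6 and CNOT6L are paralogous catalytic subunits of the CCR4 type, of which a complex holds either. They lay on opposite sides. CNOT6L was at 0.95, 1.25, 1.91, 1.08 and 2.83, against -0.50, -0.63, -0.34, -0.36 and -0.90 for CNOT6. Each was beyond the self-self range on all 5 harvests, and in size each was largest at 8 h. Their means were 1.61 (SE 0.17, limma adjusted p = 0.000462) and -0.55 (SE 0.12, limma adjusted p = 0.00508). The other pair of catalytic subunits, CNOT7 and CNOT8 of the CAF1 type, was not called, with means of -0.27 (limma adjusted p = 0.0577) and -0.13 (limma adjusted p = 0.383). CNOT1, the scaffold on which the complex is built, had a mean of 0.22 (limma adjusted p = 0.0952), and CNOT9, a docking subunit, one of -0.14. Without the 8 h array the means of CNOT8, CNOT9 and CNOT1 were -0.32 (limma adjusted p = 0.0661), -0.31 (limma adjusted p = 0.076) and 0.13 (limma adjusted p = 0.395). PAN2, the catalytic subunit of the PAN2-PAN3 deadenylase, and PARN stayed inside the self-self range on every harvest.

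The BTG/TOB adaptors were called positive in all 4 measured genes, against 37% of all genes, with a median of 0.83. These proteins bind CNOT7 or CNOT8, and TOB1 and TOB2 also bind the poly(A)-binding protein. BTG1 was at 0.87, 0.78, 1.36, 0.86 and 2.72, with -0.17 on the self-self array. TOB1 was at 0.24, 0.79, 0.62, 0.61 and 2.15, with -0.05 on the self-self array. Both were highest at 8 h, and before that BTG1 was highest at 30 min and TOB1 lowest at 0 min. TOB2 was at 0.48, 0.89, 0.86, 0.50 and 1.22, with 0.27 on the self-self array, the same side as its harvests. With self-self values subtracted the mean of TOB2 was 0.52 (limma adjusted p = 0.00866). BTG3 was at 0.19, 0.36, 0.52, 0.36 and 0.60, with -0.07 on the self-self array, and lay above the self-self range on 2 harvests only. Means were 1.32 for BTG1 (SE 0.16, limma adjusted p = 0.000522), 0.88 for TOB1 (SE 0.14, limma adjusted p = 0.0013), 0.79 for TOB2 (SE 0.12, limma adjusted p = 0.00123) and 0.41 for BTG3 (SE 0.11, limma adjusted p = 0.0111). Without the 8 h array the mean of TOB1 was 0.56 (limma adjusted p = 0.014), and BTG3 lost its call with the 30 min array left out (limma adjusted p = 0.0557). Among all genes, the median percentile of these 4 lay between 74.2 and 90.3 on each harvest.

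Among the AU-rich element binders, the 3 ZFP36 family genes were positive and of the ELAV genes only ELAVL4 was. ZFP36 proteins bring CCR4-NOT to mRNAs with AU-rich elements, while ELAV proteins bind similar elements and are known to protect mRNAs. ZFP36L1 was at 0.64, 0.57, 1.19, 0.62 and 2.78. ZFP36 was at 0.69, 0.79, 1.32, 0.29 and 0.50, and ZFP36L2 at 0.50, 0.63, 0.49, 0.23 and 0.27. ZFP36L1 was highest at 8 h, where ZFP36 and ZFP36L2 were below their 10 min values. Means were 1.16 for ZFP36L1 (SE 0.18, limma adjusted p = 0.00105), 0.72 for ZFP36 (SE 0.15, limma adjusted p = 0.00466) and 0.42 for ZFP36L2 (SE 0.11, limma adjusted p = 0.0104). Without the 8 h array that of ZFP36L1 was 0.75 (limma adjusted p = 0.00715).

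ELAVL4, known mainly from neurons, was at 0.10, 0.89, 0.87, 0.25 and 0.25, and at 0.30 on the self-self array, the highest self-self value of any decay gene. Its mean was 0.47 (SE 0.16, limma adjusted p = 0.0295), and the call was lost without the 10 min array (limma adjusted p = 0.103), without the 30 min array (limma adjusted p = 0.113), with centred arrays (limma adjusted p = 0.0587) and with self-self values subtracted (limma adjusted p = 0.37). ELAVL2 was at 0.08, 0.37, 0.37, 0.54 and 0.13 and was not called (limma adjusted p = 0.058), but was called without the 0 min array (limma adjusted p = 0.0403). ELAVL1, the member found in most tissues, had a mean of -0.23 (limma adjusted p = 0.0933), and ELAVL3 one of 0.18. KHSRP, which brings the exosome to AU-rich mRNAs, had a mean of 0.0049 and was the only decay gene outside the self-self range on the self-self array, at -0.34.

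The exosome genes were the role with the lowest median, -0.02, and of 7 genes only EXOSC3 was called. EXOSC3 was at -0.26, -1.42, -1.32, -1.07 and -0.91, with 0.01 on the self-self array. It lay inside the self-self range at 0 min and far below it on the other harvests. Its mean was -0.997 (SE 0.18, limma adjusted p = 0.00195). EXOSC9, a subunit of the barrel, was at -0.29, -0.37, -0.07, 0.22 and 1.18, and EXOSC10, the nuclear catalytic subunit, at -0.13, -0.39, -0.20, 0.09 and 0.89. EXOSC7, another barrel subunit, was at -0.10, -0.44, -0.05, -0.29 and 0.58, and EXOSC5 at 0.02, -0.27, 0.02, -0.19 and 0.26. These 4 were at or below 0, or close to it, at the first 3 harvests and highest at 8 h. The 8 h array held the highest harvest value for 6 of the 7 exosome genes, all but EXOSC3 being positive there. The median of the 7 genes was -0.12, -0.39, -0.07, -0.12 and 0.58 over the 5 harvests.

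Among the decapping and 5' to 3' decay genes, DCP1A and EDC3 were positive and DCPS negative. DCP1A, an activator of the decapping enzyme, was at 0.42, 0.75, 0.90, 0.56 and 1.44, with a mean of 0.81 (SE 0.12, limma adjusted p = 0.000945). EDC3, an enhancer of decapping, was at 0.81, 0.78, 0.66, 0.14 and 1.18, with a mean of 0.71 (SE 0.15, limma adjusted p = 0.00483). EDC3 lay inside the self-self range at 1 h only. DCPS, which hydrolyses the cap left after 3' to 5' decay, was at -0.29, -1.32, -0.61, -0.61 and -0.10, with a mean of -0.58 (SE 0.17, limma adjusted p = 0.0154). It was lowest at 10 min and close to 0 at 8 h.

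The enzymes at the core of this route were not called. DCP2, the decapping enzyme, had a mean of -0.12 (limma adjusted p = 0.398), and EDC4, a decapping scaffold, one of 0.05. XRN1, the cytoplasmic 5' to 3' exonuclease, was at 0.02, 0.26, 0.34, 0.34 and -0.04, inside the self-self range throughout. XRN2, its nuclear counterpart, was at -0.19, -0.30, -0.36, -0.29 and 0.26, with 0.23 on the self-self array. A missed call does not show that a ratio was 0, since the standard errors of these 4 means lay near 0.12, 0.11, 0.12 and 0.12.

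None of the 3 poly(A)-binding protein genes was called. PABPC1, the main cytoplasmic poly(A)-binding protein, was at 0.18, 0.02, -0.03, 0.22 and -0.09. PABPN1, the nuclear one, was at 0.29, 0.39, 0.32, 0.34 and 0.02. PABPC4 was at -0.03, -0.10, -0.07, -0.14 and -0.92. All 3 had their lowest value at 8 h, which for PABPC4 was far from the others. Their limma adjusted p values for the mean were 0.645, 0.0512 and 0.0844 for PABPC1, PABPN1 and PABPC4.

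Of the remaining readers of mRNA, PUM2 and STAU2 were positive while STAU1 and AGO1 were not called. PUM2, a repressor that binds Pumilio response elements, was at 0.68, 1.02, 1.15, 0.51 and 1.63, with a mean of 1.00 (SE 0.14, limma adjusted p = 0.000879). The Staufen paralogs bind double-stranded mRNA and act with UPF1. STAU2 was at 0.44, 0.75, 1.06, 0.65 and 0.53, above the self-self range throughout, against 0.12, 0.27, -0.39, -0.29 and -0.14 for STAU1. Their means were 0.69 (SE 0.13, limma adjusted p = 0.00251) and -0.08 (SE 0.13, limma adjusted p = 0.578). AGO1, an Argonaute protein of the small-RNA pathway, was at 0.27, 0.76, 0.40, 0.24 and -0.13, with a mean of 0.31 (limma adjusted p = 0.0568), and with an array left out that mean ran between 0.20 without the 10 min array (limma adjusted p = 0.205) and 0.42 without the 8 h array (limma adjusted p = 0.0447). AGO1 was called in 2 of these 5 fits. DCPH1 was at 0.39, 0.53, 0.75, -0.03 and 0.47, with a mean of 0.42 (limma adjusted p = 0.0263). It kept that call in 1 of the 5 fits that leave out an array, with limma adjusted p values between 0.00675 and 0.109, and leaving the gene out gave 19 positive calls.

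The next comparison asks whether the ratios moved along the chase under actinomycin D. BTG1, CNOT2, CNOT4, CNOT6L, TOB1 and ZFP36L1 were among 27 decay genes with higher values at 8 h than at any earlier harvest. PABPC4 was among 9 with a lower one. No decay gene was called for a slope on log2(1 + min / 10) over the 5 harvests, and among all genes 1 of 8748 was (0.0114%). The lowest limma adjusted p of a slope was 0.0913, for EXOSC9. At an unadjusted limma p of 0.05, 14 decay genes had a positive slope and 1, PABPC4, a negative slope. Among all genes these shares were 11.2% and 3.72%.

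Without the 1 h array, on which the largest positive values were lacking, 7 decay genes were called for the slope, all positive (13.2%), against 5.94% of 8781 genes on either side. They were ZFP36L1, BTG1, CNOT2, CNOT4, CNOT6L, TOB1 and EXOSC9. Per unit of log2(1 + min / 10), the slope was 0.41 for ZFP36L1 (SE 0.07, limma adjusted p = 0.00745), 0.36 for BTG1 (SE 0.07, limma adjusted p = 0.0122) and 0.29 for EXOSC9 (SE 0.07, limma adjusted p = 0.0309). With time taken in minutes over all 5 harvests, 5 of these 7 were called (BTG1, CNOT2, EXOSC9, TOB1 and ZFP36L1), among 377 of 8748 genes. In minutes the 8 h harvest, at 480 min, lies far from all the others. A slope in minutes therefore rests mainly on the 8 h array and is no separate sign of a steady movement. Without the 8 h array, and with that of 1 h kept, no decay gene was called (lowest limma adjusted p = 0.9997). The fits on all 5 arrays and without the 0, 10 or 30 min array also gave 0 calls. Their lowest limma adjusted p values lay between 0.0913 and 0.224. The count of 0 without 8 h therefore cannot show by itself how far the slopes on log2(1 + min / 10) rest on that array.

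The 8 h array held the highest of the 5 values for 27 decay genes (50.9%), against 33.4% of all genes. It held the lowest for 9 of the 53 decay genes, against 1875 of all 8748 genes. The median of the decay genes was 0.10, 0.26, 0.31, 0.19 and 0.50 at 0, 10 and 30 min, 1 h and 8 h, against 0.06, 0.11, 0.16, 0.07 and 0.18 for all genes. Their median percentile among all genes was 53.6, 56.2, 57.9, 59.9 and 66.6. By role, the median percentile of the exosome genes was 33.0, 29.6, 38.6, 36.6 and 70.2, while that of the poly(A)-binding protein genes 61.4, 46, 40.7, 62.1 and 36.7. These percentiles describe 1 array per harvest and carry no test.

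**Figure D3:**
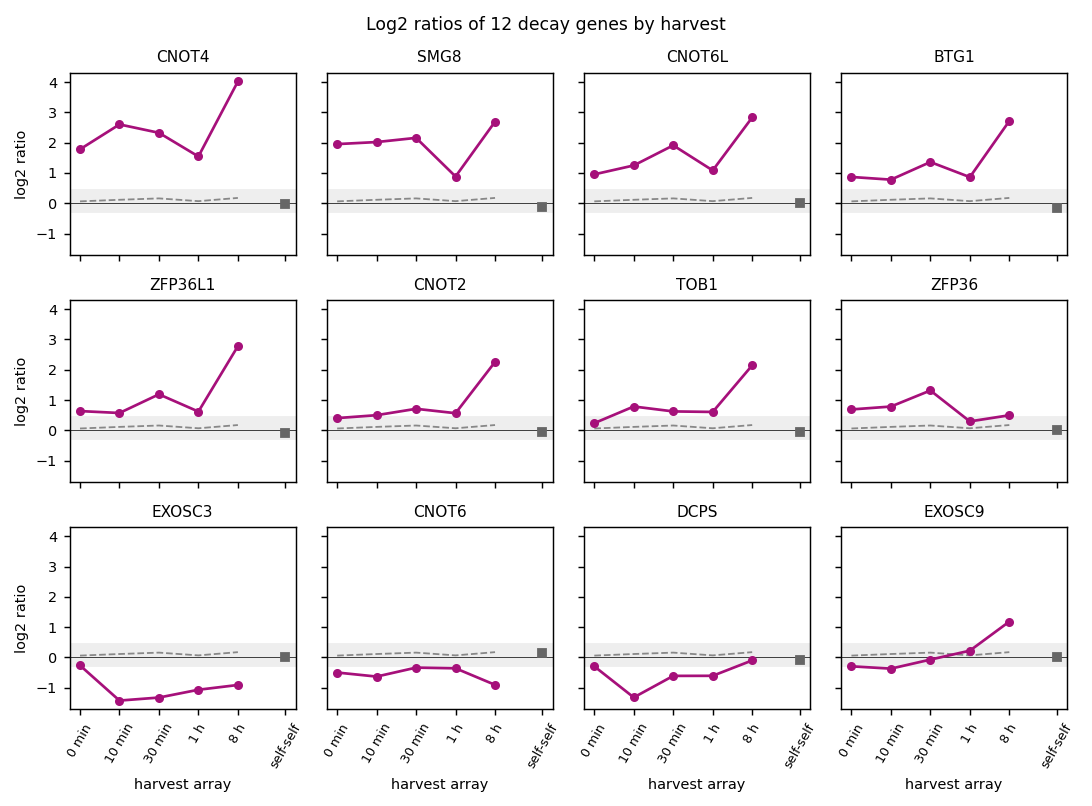
Log2 ratio of 12 decay genes on the 5 harvest arrays (purple, joined in time order) and on the self-self array (grey square), with the median of all genes dashed and the self-self range shaded. CNOT4 reaches 4.02 and ZFP36L1 2.78 at 8 h, while EXOSC3 is at -0.91 or below after 0 min and DCPS has its lowest value, -1.32, at 10 min.

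**Figure D4:**
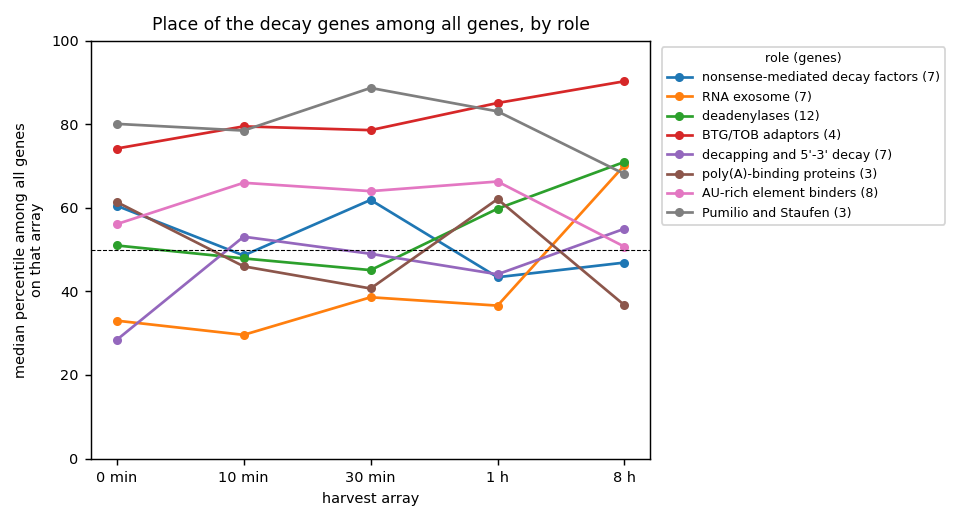
Median percentile among all genes on the same array (vertical axis, 0 to 100) of the decay genes of each role, by harvest, with the number of genes in brackets and percentile 50 dashed. The BTG/TOB adaptors lie highest or next to highest at each harvest, and the exosome genes stand at 70.2 at 8 h, against 29.6 to 38.6 before.

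Each harvest was also set against the self-self array, on which the central 99% of 8725 genes lay between -0.28 and 0.43. This range covers labelling and hybridisation of a single RNA, not differences between cultures. At 0 min 18 decay genes lay outside it (13 above and 5 below), against 41.7% of all genes. The counts were 32 at 10 min (19 and 13), 29 at 30 min (20 and 9), 23 at 1 h (14 and 9) and 33 at 8 h (28 and 5), against 69.6%, 65.7%, 48.4% and 65.5% of all genes. With every array, self-self included, divided by its robust SD, the counts were 2, 0, 0, 0 and 1 in time order. That SD was 0.12 on the self-self array and 0.44 to 0.91 on the harvests, so the division widens the range relative to the harvest values. The shares of all genes were not counted for it. As shares of the 53 genes the counts by the range are 34.0%, 60.4%, 54.7%, 43.4% and 62.3%, each below that of all genes on the same array.

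On all 5 harvests 10 decay genes were above the range, BTG1, CNOT3, CNOT4, CNOT6L, PUM2, SMG8, SMG9, STAU2, TOB2 and ZFP36L1, against 12.2% of all genes. CNOT6 alone was below it throughout, against 13.1% of all genes. Leaving the 0 min array aside, CNOT2, DCP1A and TOB1 joined the 10 above (15.5% of all genes) and EXOSC3 joined CNOT6 (17.3%). Leaving the 1 h array aside, EDC3 and ZFP36 joined the 10 (15% of all genes) and UPF2, by probe 6093, joined CNOT6 (14.4%). These counts depend on the limit, since with 1 log2 unit in its place CNOT4 alone lay beyond it on all 5 harvests, and with every array, self-self included, divided by its robust SD 0 decay genes did. A further 10 genes were inside the range on every harvest, DCP2, ELAVL3, EXOSC5, KHSRP, PABPC1, PABPN1, PAN2, PARN, SMG5 and XRN1. The share of all genes inside it throughout was not counted, so this list is a description only.

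For 5 genes the array carries 2 probes, which show how far a gene's value depends on the probe. The probes of CNOT3 were alike, with means of 1.17 and 0.95, and so in side were those of CNOT10, with 0.63 and 0.30. Those of DCP1A had means of 1.12 and 0.50, and at 8 h they were at 2.36 (probe 14097) and 0.52 (probe 5131). All 6 of these probes were called positive in a fit over single probes. The probes of EXOSC2, a cap subunit of the exosome, were at 0.10, 0.36, 0.49, 0.18 and 0.12 (probe 3817) and at -0.32, -0.76, -0.83, -0.37 and 0.97 (probe 9999). They lay on opposite sides of 0 until 8 h, neither was called, and their average near 0 stands for neither. For UPF2 the probes lay on opposite sides throughout, as given above.

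**Figure D5:**
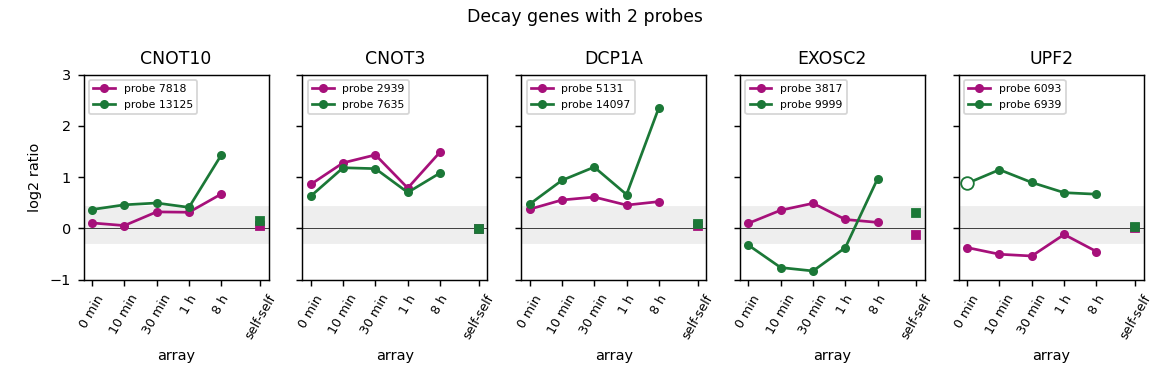
Log2 ratio of each probe of the 5 decay genes with 2 probes, on the 5 harvest arrays (joined dots) and the self-self array (squares), with the self-self range shaded. The open circle marks the 0 min value of 0.88 at UPF2 probe 6939 that is shared by 367 probes of that array, and the probes of UPF2 and EXOSC2 part while those of CNOT3 run together.

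Beside these genes, 49 other genes that act in or with mRNA decay have a probe, and 47 were measured on all 5 harvests. Of these 11 were called positive (23.4%), 11 negative (23.4%) and 25 not called, with a median of 0.13. Among all genes 37% were called positive and 25.3% negative, and the counts of the single lists stand beside the same shares. The largest positive was PNRC2, which links UPF1 to DCP1A, at 1.03, 1.91, 2.39, 1.56 and 4.09, with a mean of 2.20 (SE 0.19, limma adjusted p = 0.000462). It was highest at 8 h, like CNOT4. The 3 largest of the LSM and decapping activator list were PNRC2 and, on the negative side, LSM2 and LSM4, parts of the LSM ring that binds deadenylated mRNA, with means of -1.22 (SE 0.18, limma adjusted p = 0.00103) and -0.94 (SE 0.15, limma adjusted p = 0.00137). In that list 3 of 11 genes were positive and 4 negative.

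Of 7 exosome cofactors measured, 1 was positive, RBM7 of the nuclear exosome targeting complex, with a mean of 0.98 (SE 0.14), and 2 were negative. These were SKIC2, the helicase of the cytoplasmic exosome cofactor, with -0.80 (SE 0.14), and C1D, a nuclear cofactor, with -0.63 (SE 0.12). Of 10 exon junction complex and termination genes, 2 were positive and 1 negative. DHX34, a helicase that acts with UPF1, had a mean of 0.68 (SE 0.11), RBM8A, a core protein of the exon junction complex, one of -0.53 (SE 0.12), and MAGOH, its partner in that core, one of 0.38 (SE 0.11). RBM8A and MAGOH, which bind each other, were thus called on opposite sides, by 1 probe each. MAGOH was at 0.20, 0.35, 0.40, 0.23 and 0.74, beyond the self-self range at 8 h only. RBM8A was at -0.23, -0.60, -0.72, -0.68 and -0.39, inside that range at 0 min only.

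Of 12 other binders of 3' untranslated regions, 5 were positive and 2 negative, led by YBX1, a cold-shock domain protein, with -1.02 (SE 0.13), IGF2BP1 with 0.72 (SE 0.12) and IGF2BP3 with 0.67 (SE 0.13), both stabilisers of bound mRNAs. Of 7 genes of the miRNA pathway, none was positive and 2 were negative, XPO5, the exporter of miRNA precursors, with -0.75 (SE 0.16) and TNRC6A, the partner of Argonautes that recruits CCR4-NOT, with -0.41 (SE 0.13). At an unadjusted limma p of 0.05 these 2 were also the only calls in that list.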

How the data were processed

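The measurements are log2 ratios of 2-colour arrays of 14080 probes, 1 array per harvest and 1 self-self array, from GM00156 cells. Per the labels' protocols, the authors labelled equal masses of mRNA, Cy5 for untreated and Cy3 for emetine-treated cells, subtracted background, divided sample by reference intensity at each spot, normalised within each slide by housekeeping genes and discarded ratios with a quality value below 0.5. Zero is thus set by those genes on each slide, and a ratio is relative to the mRNA pool. That the deposited values are log2 was read from the values themselves: raised as powers of 2, 99.5% to 100% of those on an array fell on whole steps of 1 in 10000 (tolerance 0.05 of a step). The direction is unknown. The column medians were 0.05, 0.08, 0.15, 0.06, 0.15 and 0.01 in the order 0, 10 and 30 min, 1 h, 8 h and self-self, so no centring was found. Per-sample columns that were not used numbered 0.

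On each array 333 to 534 probes share 1 identical value, and such entries were treated as not measured. Probes with 1 symbol (11304, against 446 with several and 2330 with none) were averaged per gene. The 53 symbols were the same before and after updating through the gene table.

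With limma 3.58.1 in R 4.3.3, 8748 genes were fitted over the 5 harvests with an intercept, read as the mean, and a term for log2(1 + min / 10), centred. This leaves 3 residual degrees of freedom. Tests were moderated by eBayes and two-sided, with Benjamini-Hochberg adjustment over all genes at 0.05. The fit was tested on simulated data. Alternatives left out each array, centred or scaled arrays, kept repeated values, and changed the summary of probes, the filter, the time scale, the level compared with and the limit of the self-self range. Arrays give no read depth, and their number limits the precision.

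Values on all 5 harvest arrays are given for up to 5 genes of each role with the largest mean in size and for called genes with a mean of 1 or more in size. Self-self values are given for only some of these genes. Of the other decay genes, up to 3 per list are named. Other values were chosen after they were seen. The genes, lists and rules were chosen with earlier results of these data known.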

Additional observations from a re-analysis of the deposited data

Results flagged for a closer look

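For 10 decay genes the 8 h value stood apart from the other 4 harvests by Dixon's criterion for 5 values, 8 high and 2 low (18.9% of 53). Of all 8748 genes, 385 were high and 58 low at 8 h by the same criterion (5.06%), and these shares carry no test. Chance alone flags about 1 in 20 groups of 5 values when a flag at any of the 5 counts. The shares given here count flags at 8 h only, so 1 in 20 is not their chance rate. The harvests are also different times and not replicates. Among the 8 high at 8 h, ZFP36L1 was at 2.78 with the next value at 1.19, CNOT2 at 2.26 with the next at 0.71 and TOB1 at 2.15 with the next at 0.79. CNOT10, a subunit that binds CNOT1, was at 1.05 with the next at 0.41. CNOT8 was at 0.64, CNOT9 at 0.53, EXOSC2 at 0.55 and XRN2 at 0.26, each with all its earlier values below 0. Low at 8 h were PABPC4 at -0.92 with the next at -0.14 and PABPN1 at 0.022 with the next at 0.29. For EXOSC2 the 8 h value rests on probe 9999 alone, since probe 3817 was at 0.12 there. The robust SD of all probes at 8 h was 0.87, and its part in these values was not tested.

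Signal beyond the self-self range was also seen in probes that the counts do not use. UPF2 probe 6939 reached 1.15 at 10 min, on the opposite side from probe 6093. Each of 3 probes is annotated to AGO3 together with ADPRS, TEKT2 and COL8A2, so their values belong to no single gene. The largest in size were -0.75 at 8 h for probe 5084, -1.12 at 10 min for probe 7261 and -1.35 at 10 min for probe 8548, and their self-self values were 0.05, -0.05 and -0.12.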

How the results depend on the processing

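Each ratio already pairs the cultures of 1 harvest by the channel names. Each harvest has 1 array and the labels give no replicate numbers, so no harvest could be tested on its own. With each harvest array left out in turn, 17 to 21 decay genes were called positive and 3 to 4 negative. Among all genes, these fits called 27.9% to 36.9% positive and 20.1% to 25.1% negative. The slope gave 0 to 7 calls of decay genes (7 without the 1 h array), and their median mean ran between 0.13 and 0.23. Without the 8 h array the means of EDC4, EXOSC9, EXOSC10, KHSRP, SMG1 and SMG6, none of them called, changed sign. Centring each array on its median gave a median mean of 0.08 (0.04 for all genes) and 18 positive and 7 negative calls, with CNOT7, ELAVL1 and PABPC4 added on the negative side. Of all genes, 30.2% were positive and 29.9% negative with centred arrays. Dividing arrays by their robust SD gave 25 positive and 7 negative decay genes, against 40.4% and 28.1% of all genes. With the self-self array entered as the level to compare with, limma called 0 positive and 0 negative decay genes (lowest adjusted p = 0.157, 13 at an unadjusted p of 0.05) and 1 of 8725 genes, the single self-self array being assumed to vary like the harvests. Subtracting self-self values gave 22 and 5, against 32.7% and 24.1% of all genes. Time in minutes gave 5 slope calls of decay genes, among 377 of 8748 genes.

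UPF2 changed side, with means of 0.23 without the 0 min array, 0.23 with repeated values kept (limma adjusted p = 0.0855) and 0.11 with genes on at least 4 harvests (limma adjusted p = 0.498). Leaving out other arrays kept it negative, down to -0.46, and the call was lost without 10 min (limma adjusted p = 0.0503) or 30 min (limma adjusted p = 0.0778). CNOT10 was not called without 8 h (limma adjusted p = 0.0669). DCPH1 was called in only 1 of these 5 fits. Leaving DCPH1 out, which was chosen after seeing the data, gave 19 positive calls.

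A limit of 1 log2 unit in place of the self-self range left 1 gene, CNOT4, beyond it on all 5 harvests, against 11 by the range, and 2, 7, 11, 3 and 15 at 0, 10 and 30 min, 1 h and 8 h. With every array divided by its robust SD, 0 genes were outside on all 5, and 2, 0, 0, 0 and 1 on the single harvests. With repeated values kept, 7 were outside on all 5. The other alternatives left each count within 1.5 times the value reported.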
